A study of Mus musculus with 24 samples.

Results

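The genes described here are 10 genes of the T cell and natural killer (NK) cell lineages, Cd3d, Cd3e, Cd3g, Cd28, Il2rb, Gzma, Gzmb, Tcf7, Lef1 and Gata3, measured in blood progenitors of mice with and without BAP1. They were listed by name and matched to the gene symbols of the array without regard to case. Of 17741 named genes on the array, these are 10, each with 1 probe. BAP1 is a nuclear deubiquitinase that removes ubiquitin from histone H2A.

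The cells were sorted from bone marrow of C57BL/6 mice in 4 groups of 2 mice, each mouse measured on 3 one-colour arrays. These were LSK cells, the lineage-negative ScaI+ Kit+ fraction enriched for hematopoietic stem cells, from mice labelled BAP1 KO (mice 2 and 4) and BAP1 WT (mice 1 and 3), and lineage-negative ScaI- Kit+ myeloid progenitors from mice labelled BAP1 KO (mice 7 and 8) and BAP1 WT (mice 5 and 6). Per the labels, tamoxifen was injected to delete BAP1 systemically, and no group is singled out as uninjected. The sources used here do not name the recombinase, the deleted part of the gene, the antibodies of the lineage sort, the age of the mice or the time after injection. No mouse gave both populations. Values are the authors' log2 intensities, and a level below is the mean of the 3 arrays of a mouse.

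A mature T cell carries an antigen receptor that signals through the CD3 chains, and CD28 gives the second, costimulatory signal. NK cells and cytotoxic T cells respond to interleukin-2 and interleukin-15 through the receptor chain encoded by Il2rb and kill with granzymes. In thymic progenitors, Notch signals turn on the transcription factors TCF-1 (encoded by Tcf7) and GATA3, and LEF1 is a close relative of TCF-1. Gata3 is also known for roles in hematopoietic stem cells, and granzyme B is also made by mast cells and basophils.

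The probe of Bap1 itself was not lower in mice labelled KO. It read 11.96 and 11.84 in KO LSK mice, against 11.55 and 11.45 in WT LSK mice, and 11.67 and 11.85 in KO myeloid progenitor mice, against 11.54 and 11.59 in WT myeloid progenitor mice (0.40 in LSK cells, limma adjusted p = 0.321, and 0.20 in myeloid progenitors, adjusted p = 0.843). Whether this probe lies inside the deleted part is unknown here, so it cannot serve as a control of the genotype, and below KO and WT mean the label. Of the 8 mice, WT mice 1 and 5 alone had a signal of the Y-linked gene Kdm5d. It read 7.88 and 8.15 in these mice, against 5.93 to 6.03 in the other 6. Below, calls lost without both mice 1 and 5 are named for some genes and enter only counts for many others.

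Most probes of these genes lay in the lower part of the array's range. The 25th percentile of all probe means was 6.20 and the median 7.20 on the log2 scale. Averaged over 24 arrays, Gata3 read highest at 8.82, followed by Gzmb (7.86), Cd3e (7.56), Il2rb (7.45), Tcf7 (7.41), Gzma (7.03), Cd28 (6.73), Cd3d (6.59), Cd3g (6.39) and Lef1 (6.05). These are readings of different probes and give no order of transcript amounts. Near the low end of the array a log2 change understates the change in RNA. In sorted cells, fewer cells of a type and less RNA per cell cannot be told apart.

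**Figure D1:**
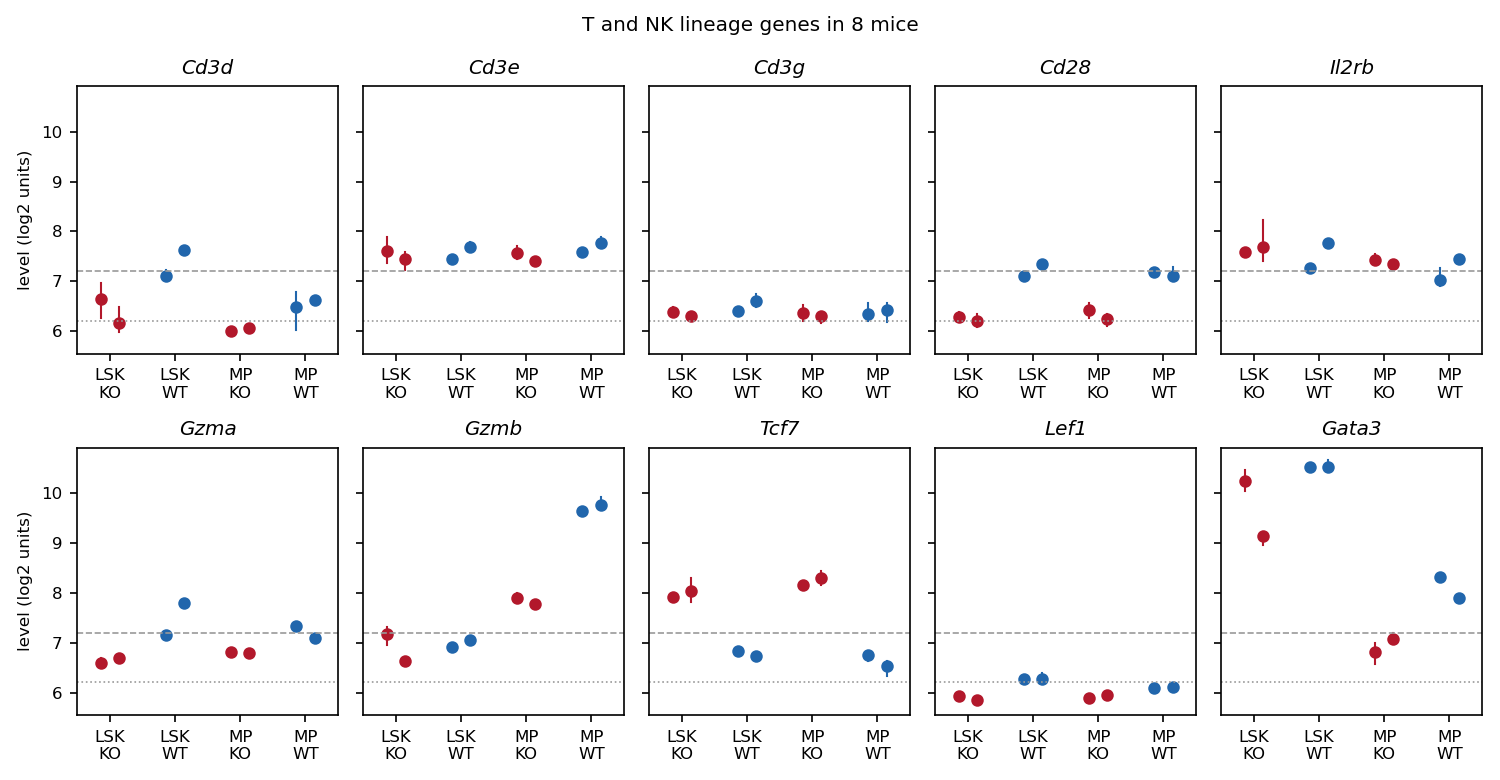
Level in log2 units (vertical axis) of the 10 genes in LSK cells and myeloid progenitors (MP) of KO mice (red) and WT mice (blue). Each point is the mean of the 3 arrays of 1 mouse, the bar spans its lowest and highest array, and the dotted and dashed lines mark the 25th percentile (6.20) and the median (7.20) of probe means; Tcf7 lay higher in all KO mice than in any WT mouse and Cd28 lower.

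In KO LSK cells, the genes that fell were Cd3d, Cd28, Gzma and Lef1, while Tcf7 rose. In KO myeloid progenitors Cd28 and Gzmb fell and Tcf7 rose. Limma with Benjamini-Hochberg adjustment over all 22439 probes and a threshold of 0.05 thus called 5 of the 10 genes in LSK cells, 1 higher and 4 lower, where it called 4.64% of all genes (1.74% higher and 2.9% lower). In myeloid progenitors it called 3 of 10, 1 higher and 2 lower, where it called 2.64% of all genes (0.908% higher and 1.74% lower). The median change of the 10 genes was -0.27 in LSK cells and -0.30 in myeloid progenitors, against 0.016 and 0.0014 over all genes. Averaged over both populations 7 of 10 passed, Tcf7 higher and 6 lower, where 7.95% of all genes passed (3.09% higher and 4.85% lower). The KO mice lay apart from the WT mice for 7 genes in LSK cells and for 8 in myeloid progenitors, a separation shown by 46.6% and 41% of all genes.

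**Figure D2:**
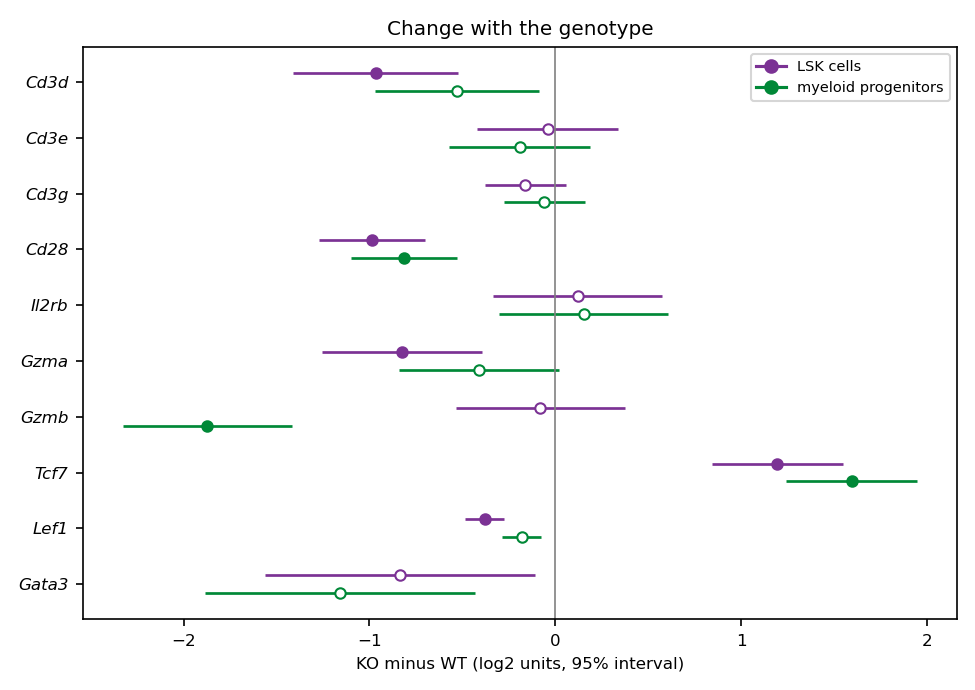
KO minus WT in log2 units (horizontal axis) for each gene in LSK cells and myeloid progenitors, with 95% intervals of the limma fit of 2 mice per group. Filled points passed the adjusted threshold of 0.05; Tcf7 lay above 0 in both populations, and Gzmb at -0.08 in LSK cells and -1.87 in myeloid progenitors.

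Tcf7 was the only one of the 10 genes that rose, and it did so in both populations. It encodes TCF-1, the DNA-binding factor of the Wnt pathway that starts the T cell programme in the thymus. It read 7.91 and 8.04 in KO LSK mice, against 6.84 and 6.72 in WT LSK mice. In the other population, myeloid progenitors, Tcf7 read 8.16 and 8.31 in KO mice, against 6.75 and 6.53 in WT mice. All 4 KO mice lay above the highest of the 4 WT mice. The change was 1.20 ± 0.16 in LSK cells (SE, n = 2 mice per group, 2.29-fold, limma adjusted p = 0.00225) and 1.60 ± 0.16 in myeloid progenitors (3.02-fold, adjusted p = 0.000669). The effects of both populations did not differ past the threshold, at -0.40 for LSK minus myeloid progenitors with a 95% interval from -0.90 to 0.10 (adjusted p = 0.874). The call held in every fit without 1 mouse, with changes of 1.13 to 1.26 in LSK cells and 1.49 to 1.71 in myeloid progenitors. Between the populations Tcf7 did not pass in KO mice (-0.26 for LSK minus myeloid progenitors, adjusted p = 0.364) or in WT mice (0.14, adjusted p = 0.632).

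Lef1, whose protein shares the DNA-binding domain of TCF-1, did not follow Tcf7. It read 5.92 and 5.86 in KO LSK mice, against 6.27 and 6.27 in WT LSK mice, and fell by 0.38 ± 0.05 (adjusted p = 0.00164). Lef1 in myeloid progenitors read 5.89 and 5.95 in KO mice, against 6.09 and 6.11 in WT mice, a change of -0.18 ± 0.05 that did not pass (adjusted p = 0.0916). KO and WT mice did not overlap in either population. Every group mean lay near or below the 25th percentile of probe means, so that these small steps stand at the floor of the array. The average over both populations passed at -0.28 ± 0.03 (adjusted p = 0.000634).

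Tcf7 is shown here with its start region because it rose in both populations. The window, from RefSeq on GRCm38.p6, holds 250 bases before and 50 bases after the first of its annotated starts, on the minus strand of chr11:52282965-52283264. Capitals would mark matches on either strand to AGATAA (the core bound by GATA factors), CTTTGAT or CTTTGTT (TCF/LEF), TGTGGT (RUNX) or TGACTCA (AP-1), and this window holds 0. Read from its first atg, the sequence runs to its end with no stop codon, so much of it may be coding sequence. The 0 matches therefore do not describe a promoter, and where transcription starts in these cells was not tested.
Tcf7: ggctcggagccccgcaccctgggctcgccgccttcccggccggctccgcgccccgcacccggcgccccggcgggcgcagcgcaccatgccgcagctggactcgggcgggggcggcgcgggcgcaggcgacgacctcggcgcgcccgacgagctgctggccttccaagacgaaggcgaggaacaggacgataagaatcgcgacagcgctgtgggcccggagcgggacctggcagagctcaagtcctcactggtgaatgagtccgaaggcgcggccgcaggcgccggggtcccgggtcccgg

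Over 32851 such windows in the table, AGATAA occurs in 11.2%, CTTTGAT in 3.73%, CTTTGTT in 5.85%, TGTGGT in 16.8% and TGACTCA in 5.2%. The table holds windows for 8 of the 10 genes, 12 in all because Tcf7 has 2 and Lef1 has 4. Of these 12, AGATAA occurs in 2, CTTTGAT in 1, CTTTGTT in 0, TGTGGT in 2 and TGACTCA in 1. A match of letters is a description of the sequence and not a bound site.

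Gata3 had the largest difference between populations on the LSK side. This zinc finger factor is required for the T lineage and acts in stem cells as well. It read 10.25 and 9.14 in KO LSK mice, against 10.53 and 10.53 in WT LSK mice. In myeloid progenitors it read 6.82 and 7.08 in KO mice, against 8.32 and 7.89 in WT mice. The order of the groups was thus WT LSK, KO LSK, WT myeloid progenitors and KO myeloid progenitors, with no overlap of mice between neighbours. LSK cells lay above myeloid progenitors by 2.75 ± 0.33 in KO mice (6.72-fold, adjusted p = 0.000782) and by 2.43 ± 0.33 in WT mice (5.37-fold, adjusted p = 0.00114).

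The genotype difference of Gata3 was -0.84 ± 0.33 in LSK cells (adjusted p = 0.23) and -1.16 ± 0.33 in myeloid progenitors (adjusted p = 0.127), and neither passed. In each population both KO mice lay below both WT mice. The KO LSK mice stood apart from each other, with the arrays of mouse 4 at 8.97 to 9.23 and those of mouse 2 at 10.04 to 10.47, near the WT mice. Without mouse 2 the LSK difference was -1.39, and without mouse 4 it was -0.28, so its size depended on 1 mouse. In myeloid progenitors the difference passed without mouse 2 or mouse 4 and with the compared groups alone (adjusted p = 0.014). All 24 arrays were also fitted with a random effect for the mouse. Gata3 then passed in LSK cells (limma adjusted p = 0.00731) and in myeloid progenitors (adjusted p = 0.000357). That fit counts the arrays of a mouse, which are technical. It called 2671 of all genes in LSK cells, against 824 in the fit of mouse means. The average over both populations passed at -0.998 ± 0.231 (adjusted p = 0.0263), was lost without any 1 of mice 1, 3, 5, 6, 7 or 8 (adjusted p up to 0.109), and was -0.89 (adjusted p = 0.225) without mice 1 and 5.

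Gzmb showed the largest decrease with the genotype and the largest difference toward myeloid progenitors. Granzyme B is a serine protease of cytotoxic granules that cleaves after aspartate and triggers apoptosis of the target cell. It read 7.89 and 7.78 in KO myeloid progenitor mice, against 9.65 and 9.77 in WT myeloid progenitor mice. In LSK cells it read 7.17 and 6.63 in KO mice, against 6.90 and 7.05 in WT mice. WT myeloid progenitors stood above every other mouse, KO myeloid progenitors next, and the LSK mice of both genotypes overlapped at the bottom. Gzmb fell by 1.87 ± 0.21 in KO myeloid progenitors (3.66-fold, adjusted p = 0.000966), and this call held without any 1 mouse (-1.93 to -1.81). In LSK cells the difference was -0.08 with a 95% interval from -0.54 to 0.38 (adjusted p = 0.911).

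The test of whether the Gzmb effect differed between populations gave 1.79 ± 0.29 for LSK minus myeloid progenitors (95% interval 1.15 to 2.44). Its limma p over 22439 probes was 7.68e-05 unadjusted, and the limma adjusted p was 0.0784. Without 1 mouse in turn the estimate ran from 1.52 to 2.07, the latter without mouse 4. The test passed when run only on the brighter probes past the 50th percentile (limma adjusted p = 0.0245). It also passed when all 24 arrays were fitted with a random effect for the mouse (adjusted p = 1.57e-06). That last fit counts the arrays of a mouse, which are technical. None of the 10 genes passed this test in the fit of mouse means, where 0.062% of all genes passed. Before adjustment Gzmb and Lef1 had p below 0.05 (2 of 10). The share of all genes at that unadjusted level was not counted. Within WT mice, LSK cells lay below myeloid progenitors by 2.73 ± 0.21 on the log2 scale (6.63-fold, adjusted p = 5.59e-05), and within KO mice by 0.94 ± 0.21 (1.92-fold, adjusted p = 0.0143). In the KO mice this difference did not pass when mouse 4, 7 or 8 was left out, with adjusted p values of up to 0.0961.

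Genes known from mast cells and basophils, which also make granzyme B, did not move one way beside Gzmb. Of 16 further genes on a mast cell and basophil list, 2 rose and 2 fell in KO LSK cells, and 1 rose and 2 fell in KO myeloid progenitors. Of all genes 1.74% were called higher and 2.9% lower in LSK cells, and 0.908% higher and 1.74% lower in myeloid progenitors. In both populations Mcpt8 rose and Prss34 and Cd200r3 fell. In myeloid progenitors Mcpt8 rose by 1.46 ± 0.18, Prss34 fell by 1.73 ± 0.19 and Cd200r3 fell by 0.38 ± 0.08. The mean of 6 mast cell and basophil markers was 10.57 to 10.84 in KO myeloid progenitor mice, against 10.76 to 10.78 in WT myeloid progenitor mice.

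Gzma, the tryptase granzyme of the same granules, passed in LSK cells. It read 6.59 and 6.70 in KO LSK mice, against 7.14 and 7.79 in WT LSK mice, and 6.81 and 6.79 in KO myeloid progenitor mice, against 7.33 and 7.09 in WT myeloid progenitor mice. All KO mice lay below all WT mice, and the WT LSK mice were the least alike pair. Gzma fell by 0.83 ± 0.20 in LSK cells (1.77-fold, adjusted p = 0.0402). This call was lost without any 1 of mice 2 to 8 (-1.15 to -0.50 over the fits without 1 mouse, adjusted p up to 0.181). In myeloid progenitors the difference was -0.41 ± 0.20 and did not pass (adjusted p = 0.492), and between populations Gzma did not pass in KO mice (adjusted p = 0.701) or WT mice (adjusted p = 0.45).

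The start region of Gzmb is shown because this gene changed most. It lies on the minus strand of chr14:56262285-56262584 and holds 3 of the matches, TGTGGT at 2 places and TGACTCA, read on the other strand, at 1 place, all in capitals.
Gzmb: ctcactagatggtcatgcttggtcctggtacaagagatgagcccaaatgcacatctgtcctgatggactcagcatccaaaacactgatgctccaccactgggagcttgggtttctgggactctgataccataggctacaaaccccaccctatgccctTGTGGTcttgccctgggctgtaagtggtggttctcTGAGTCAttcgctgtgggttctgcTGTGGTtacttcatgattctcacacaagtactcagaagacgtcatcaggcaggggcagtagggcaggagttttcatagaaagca

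Cd28, the costimulatory receptor of T cells, fell in both populations. It read 6.28 and 6.19 in KO LSK mice, against 7.11 and 7.34 in WT LSK mice. In myeloid progenitors it read 6.42 and 6.24 in KO mice, against 7.18 and 7.10 in WT mice. The 4 KO mice lay near the 25th percentile of probe means and the 4 WT mice near the median, with no overlap. Cd28 fell by 0.99 ± 0.13 in LSK cells (1.98-fold, adjusted p = 0.00199), a call that held without any 1 mouse, and by 0.81 ± 0.13 in myeloid progenitors (1.76-fold, adjusted p = 0.00738). In myeloid progenitors the call was lost when mouse 5 or 8 was left out, with adjusted p values reaching 0.0915, and without both mice 1 and 5 (-0.77, adjusted p = 0.052). The populations did not differ past the threshold in KO mice (-0.09, adjusted p = 0.734) or in WT mice (0.08, adjusted p = 0.749).

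Of the 3 CD3 genes, which encode invariant signalling chains of the T cell receptor, Cd3d passed in LSK cells and the others did not; the difference between these genes was not tested. Cd3d read 6.65 and 6.15 in KO LSK mice, against 7.10 and 7.63 in WT LSK mice, and fell by 0.97 ± 0.20 (1.95-fold, adjusted p = 0.0272). Cd3d in myeloid progenitors read 6.00 and 6.05 in KO mice, against 6.48 and 6.63 in WT mice, a difference of -0.53 ± 0.20 that did not pass (adjusted p = 0.315). The KO mice lay below the WT mice in each population. The LSK call was lost without any 1 of mice 3 to 8 (-1.23 to -0.70 over the fits without 1 mouse, adjusted p up to 0.0773), and also with the compared groups alone (adjusted p = 0.0831). With the compared groups alone, Cd3d passed in myeloid progenitors instead (adjusted p = 0.0123), so which population carried the call depended on the fit. Cd3d was higher in LSK cells than in myeloid progenitors within WT mice, by 0.81 ± 0.20 (adjusted p = 0.0263), a call lost without mouse 3, 5 or 6 and without both mice 1 and 5.

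Cd3e and Cd3g did not pass in any comparison. Cd3e read 7.60 and 7.45 in KO LSK mice, against 7.45 and 7.68 in WT LSK mice, and 7.57 and 7.40 in KO myeloid progenitor mice, against 7.58 and 7.78 in WT myeloid progenitor mice. Its 95% interval of KO minus WT was -0.42 to 0.34 in LSK cells and -0.57 to 0.19 in myeloid progenitors. Cd3g read 6.38 and 6.29 in KO LSK mice, against 6.39 and 6.60 in WT LSK mice, and 6.36 and 6.30 in KO myeloid progenitor mice, against 6.35 and 6.42 in WT myeloid progenitor mice. Its intervals were -0.38 to 0.06 in LSK cells and -0.28 to 0.16 in myeloid progenitors.

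The start regions of Cd3d and Cd3g are shown because these genes are neighbours and Cd3d passed where Cd3g did not. Their windows lie on opposite strands, with starts 1355 bases apart, Cd3d on the plus strand of chr9:44981536-44981835 and Cd3g on the minus strand of chr9:44980382-44980681. Cd3d holds CTTTGAT, read on the other strand, and Cd3g holds AGATAA, both in capitals.
Cd3d: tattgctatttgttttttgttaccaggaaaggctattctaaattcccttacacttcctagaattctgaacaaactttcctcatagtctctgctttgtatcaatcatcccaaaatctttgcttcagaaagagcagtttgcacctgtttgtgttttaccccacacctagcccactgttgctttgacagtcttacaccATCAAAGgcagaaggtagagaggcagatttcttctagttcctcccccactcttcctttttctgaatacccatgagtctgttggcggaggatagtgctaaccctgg
Cd3g: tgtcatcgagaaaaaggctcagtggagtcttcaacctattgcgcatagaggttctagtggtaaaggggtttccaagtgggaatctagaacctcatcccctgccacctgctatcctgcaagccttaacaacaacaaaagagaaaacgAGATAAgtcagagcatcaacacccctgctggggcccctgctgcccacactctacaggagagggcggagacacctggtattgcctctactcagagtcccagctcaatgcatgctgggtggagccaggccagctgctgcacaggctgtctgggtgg

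Il2rb, the receptor chain shared by interleukin-2 and interleukin-15, did not differ past the threshold in any comparison. It read 7.58 and 7.70 in KO LSK mice, against 7.26 and 7.77 in WT LSK mice, and 7.44 and 7.35 in KO myeloid progenitor mice, against 7.02 and 7.45 in WT myeloid progenitor mice. KO and WT mice overlapped in both populations. The 95% interval of KO minus WT was -0.33 to 0.58 in LSK cells and -0.30 to 0.61 in myeloid progenitors.

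**Figure D3:**
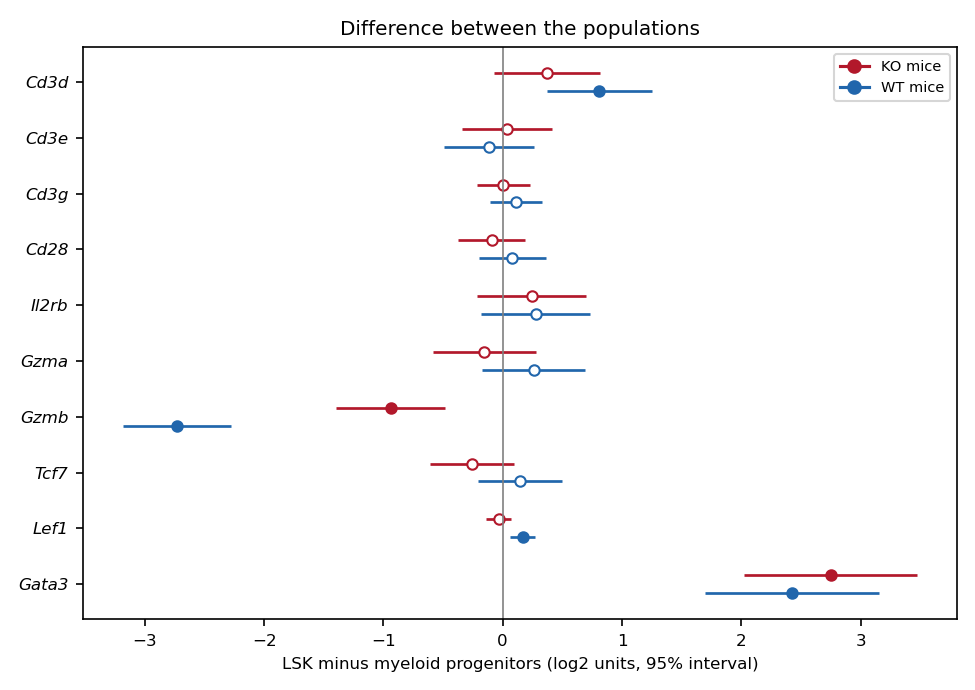
LSK minus myeloid progenitors in log2 units (horizontal axis) for each gene within KO mice and within WT mice, with 95% intervals of the limma fit of 2 mice per group. Filled points passed the adjusted threshold of 0.05; Gata3 lay at 2.75 and 2.43 and Gzmb at -0.94 and -2.73 in KO and WT mice.

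Of the 10 genes, Gata3 and Gzmb passed between the populations in mice of either genotype. Within KO mice 2 of 10 passed, Gata3 and Gzmb, where 12.8% of all genes passed the same test (7.26% higher in LSK cells and 5.49% lower). Within WT mice 4 of 10 passed, Gata3, Cd3d and Lef1 higher in LSK cells and Gzmb lower, where 13.5% of all genes passed (8.08% higher in LSK cells and 5.46% lower). The Lef1 difference in WT mice was 0.17 ± 0.05 (adjusted p = 0.0415), at the floor of the array, and it was lost without any 1 of mice 1, 3, 5, 6, 7 or 8. These comparisons use the same mice as the genotype comparisons and are not independent of them.

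Markers of mature T and NK cells were read in each group. Of 16 T cell markers 12 were measured, 4 of them among the 10 genes. Their mean was 6.99 to 7.13 in KO LSK mice, against 7.37 to 7.46 in WT LSK mice, and 6.94 to 6.99 in KO myeloid progenitor mice, against 6.97 to 7.09 in WT myeloid progenitor mice. Cd4 lay at or below the 25th percentile in every group but KO myeloid progenitors, where mouse 8 read 7.08, and Cd5 did so in both groups of myeloid progenitors. Of 11 NK markers 10 were measured, Gzma and Il2rb among them, with means of 6.97 to 7.09 in KO LSK mice, against 7.03 to 7.16 in WT LSK mice, and 7.08 to 7.11 in KO myeloid progenitor mice, against 7.04 to 7.19 in WT myeloid progenitor mice. The NK receptor gene Ncr1 and the factors Eomes and Tbx21 lay at or below the 25th percentile in all 4 groups. Other members of these lists read high, with the granule gene Nkg7 at 11.83 to 11.85 in KO LSK mice, against 10.70 to 10.71 in WT LSK mice, and the adaptor gene Lat at 11.06 to 11.67 in KO LSK mice, against 11.33 to 11.75 in WT LSK mice. Of the 12 T cell markers, 3 lay above the median probe in KO LSK cells, against 7 in WT LSK cells. Those above it in WT LSK cells only were Cd3d and Cd28, of the 10 genes, and Cd247 and Bcl11b, which limma did not call. They averaged 7.22 to 7.40 there, close to the median of 7.20.

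Marker levels of other lineages also differed between KO and WT mice. The mean of 8 measured B cell markers was 7.30 to 7.58 in KO LSK mice, against 9.57 to 9.71 in WT LSK mice. In myeloid progenitors it was 7.46 to 7.53 in KO mice, against 9.16 to 9.45 in WT mice. The 8 did not move alike in LSK cells. Vpreb3 read 6.74 and 6.23 in KO LSK mice, against 11.27 and 11.95 in WT LSK mice. Pax5 did not lie lower, at 6.40 and 6.24 in KO LSK mice, against 6.23 and 6.22 in WT LSK mice. The mean of 9 myeloid progenitor markers was 11.60 to 12.03 in KO LSK mice, against 10.70 to 11.36 in WT LSK mice. Of 5 monocyte and macrophage markers the mean was 9.32 to 9.47 in KO myeloid progenitor mice, against 9.94 to 10.06 in WT myeloid progenitor mice. That of 3 erythroid markers was 10.42 to 11.38 in KO myeloid progenitor mice, against 11.73 to 11.82 in WT myeloid progenitor mice, and that of 6 neutrophil markers was 11.01 to 11.18 in KO, against 10.61 to 10.83 in WT myeloid progenitor mice. In myeloid progenitors the 9 myeloid progenitor markers went the other way, at 12.92 to 13.04 in KO mice, against 13.08 to 13.15 in WT mice. In LSK cells KO and WT mice overlapped in the monocyte and macrophage, erythroid and neutrophil means. The monocyte and macrophage genes moved in opposite directions there. Cd68 read 11.72 and 10.92 in KO LSK mice, against 9.04 and 9.08 in WT LSK mice. Adgre1, Csf1r, C1qa and Mpeg1 lay lower in KO LSK mice, with Mpeg1 at 9.71 and 9.73, against 10.76 and 11.05. Cd68 also lay higher in KO myeloid progenitor mice, at 10.66 and 10.65, against 9.74 and 10.05 in WT myeloid progenitor mice. The part of these marker shifts in the results on the 10 genes was not tested. The sorted populations themselves differed in their markers, with 6 LSK markers at 10.65 to 10.86 in KO LSK mice and 10.93 to 11.36 in WT LSK mice, against 8.69 to 8.95 in KO and 8.44 to 8.70 in WT myeloid progenitor mice.

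Further genes of the T and NK programme were read by list, and each count of calls below stands beside the share of all genes called. That share was 1.74% higher and 2.9% lower in LSK cells and 0.908% higher and 1.74% lower in myeloid progenitors. Counts below an unadjusted p of 0.05 have no such share beside them, since it was not counted. Of 14 further costimulatory and T cell surface genes, 4 fell in KO LSK cells and 0 rose, against 2.9% and 1.74% of all genes. The inducible costimulator Icos read 6.77 and 6.88 in KO LSK mice, against 8.21 and 9.37 in WT LSK mice, and fell by 1.96 ± 0.31 (adjusted p = 0.0125). Cd96, an adhesion receptor of T and NK cells, read 8.70 and 8.70 in KO LSK mice, against 10.93 and 10.34 in WT LSK mice, and fell by 1.94 ± 0.23 (adjusted p = 0.0012). The homing receptor genes Ccr9 (-1.28 ± 0.24) and Ccr7 (-0.81 ± 0.14) also fell. With Cd28, the list of 15 had a median of -0.26 in LSK cells and -0.10 in myeloid progenitors. In myeloid progenitors limma called 0 of the 14, with 2 below an unadjusted p of 0.05.

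Among 13 further genes of the T cell receptor complex and its first signalling steps, 1 fell in KO LSK cells. This was Lcp2, which encodes the adaptor SLP-76, by 0.96 ± 0.17 (adjusted p = 0.00961). In myeloid progenitors limma called 0 of 13, with 2 below an unadjusted p of 0.05. The list of 16 with the CD3 genes had medians of -0.24 in LSK cells and -0.07 in myeloid progenitors.

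Among 16 further genes of the cytotoxic granule, 1 rose and 1 fell in KO LSK cells. The granule membrane gene Nkg7 rose by 1.14 ± 0.21 (adjusted p = 0.0138) and Serpinb6b fell by 1.01 ± 0.23 (adjusted p = 0.0325). In myeloid progenitors limma called 0 of 16, with 3 below an unadjusted p of 0.05. The median of the list of 18 was 0.00095 in LSK cells and -0.02 in myeloid progenitors. Of the granzymes, Gzmc and Gzmk lay below the 25th percentile of probe means in every group.

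Of 20 further T and NK transcription factors, 3 fell in KO LSK cells and 2 in KO myeloid progenitors, and 0 rose in either. Of all genes 2.9% were called lower in LSK cells and 1.74% in myeloid progenitors. The factor Tox, needed for T cell development, fell by 1.63 ± 0.33 in LSK cells (adjusted p = 0.025). Ets1, which drives many T cell genes, fell by 1.32 ± 0.28 in LSK cells (adjusted p = 0.0241), and by 1.41 ± 0.28 in myeloid progenitors (adjusted p = 0.024). The E protein gene Tcf4 fell by 1.55 ± 0.23 in myeloid progenitors (adjusted p = 0.00595). Eomes fell by 0.17 ± 0.04 in LSK cells (adjusted p = 0.0295), at the floor of the array. Despite its name, Tcf4 encodes an E protein and belongs to another family than Tcf7.

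Beside Tcf7 and Lef1, limma called no gene of the TCF/LEF and Wnt list in LSK cells or in myeloid progenitors taken alone. Among 17 further genes limma called 0 in LSK cells and 0 in myeloid progenitors, with 3 and 2 below an unadjusted p of 0.05, and the list of 19 had medians of 0.012 and 0.0042. Averaged over both populations 1 of the 17 passed, where 7.95% of all genes passed (3.09% higher and 4.85% lower). This was the corepressor gene Tle1, which rose by 0.60 ± 0.16, at the edge of the threshold (limma adjusted p = 0.0496). Other lists also held genes that passed on average, which are not named here. The relative Tcf7l1 averaged 8.68 ± 0.04 in KO LSK mice, against 8.44 ± 0.07 in WT LSK mice (SD, n = 2 each). Tcf7l2 averaged 8.99 ± 0.26 in KO LSK mice, against 8.90 ± 0.33 in WT LSK mice.

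In the list of Notch and early T lineage genes, 4 of 13 measured genes fell in KO LSK cells and 0 rose, while 2 fell and 1 rose in KO myeloid progenitors. The shares of all genes were 2.9% lower in LSK cells, and 1.74% lower and 0.908% higher in myeloid progenitors. The 4 that fell in LSK cells were Rag1, Rag2, Il7r and Ccr9, and Ccr9 is counted in the T cell surface list too. The mean of the B cell markers above also lay lower in these mice, and a link was not tested. The recombinase gene Rag1 read 5.89 and 5.96 in KO LSK mice, against 9.53 and 8.76 in WT LSK mice. The interleukin-7 receptor gene Il7r read 7.35 and 6.93 in KO LSK mice, against 9.16 and 9.33 in WT LSK mice, and both genes also fell in myeloid progenitors. The Notch target Nrarp read 9.48 and 9.85 in KO myeloid progenitor mice, against 8.23 and 8.55 in WT myeloid progenitor mice, and rose by 1.28 ± 0.24 (adjusted p = 0.0195). The medians of the list were -0.11 in LSK cells and -0.14 in myeloid progenitors.

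Around Il2rb, 15 further genes of interleukin-2 and interleukin-15 signalling were read. Of these, 1 rose in KO LSK cells and 4 rose in KO myeloid progenitors, and 0 fell in either. Of all genes 1.74% were called higher in LSK cells and 0.908% in myeloid progenitors. The 4 were Socs3, Socs2 and Cish, feedback inhibitors of cytokine receptors, and the kinase gene Pim1, all known targets of STAT factors. Pim1 read 13.50 and 13.41 in KO myeloid progenitor mice, against 12.19 and 12.01 in WT myeloid progenitor mice. In LSK cells Pim1 read 13.86 and 13.78 in KO mice, against 14.03 and 13.99 in WT mice, and it passed the test of the difference between populations at -1.55 ± 0.23 (adjusted p = 0.0424). The list of 16 had medians of 0.10 in LSK cells and 0.23 in myeloid progenitors.

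Of 16 further NK and innate lymphoid genes, 3 fell and 1 rose in KO LSK cells. The chemokine genes Xcl1 (-1.43 ± 0.30) and Ccl5 (-0.72 ± 0.16) and Icos fell, and the interleukin-18 receptor gene Il18r1 rose by 1.26 ± 0.17 (adjusted p = 0.0026). In myeloid progenitors limma called 0 of 16, with 1 below an unadjusted p of 0.05. Of the other 4 genes of the GATA list limma called 0 in either population, with 0 below an unadjusted p of 0.05. Gata2 averaged 12.49 ± 0.19 in KO LSK mice, against 12.20 ± 0.41 in WT LSK mice.

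Among the calls on the surrounding genes, Xcl1, Ccl5, Serpinb6b and Cd200r3 in LSK cells were lost even without a mouse of the myeloid progenitor groups. Nkg7 in LSK cells was lost without mouse 1 or 3, while its change stayed at 1.13 to 1.15. Ccr7 and Rag2 in LSK cells were lost without both mice 1 and 5. Many of the calls on the surrounding genes depended on which mice were fitted. Counted with the mast cell and basophil list, 8 of 21 such calls in LSK cells and 4 of 12 in myeloid progenitors held in every fit without 1 mouse. The 8 were Cd96, Ccr7, Il7r, Rag1, Rag2, Il18r1, Mcpt8 and Prss34, and the 4 were Rag1, Pim1, Mcpt8 and Prss34. Without both mice 1 and 5, 9 of 21 and 7 of 12 held.

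**Figure D4:**
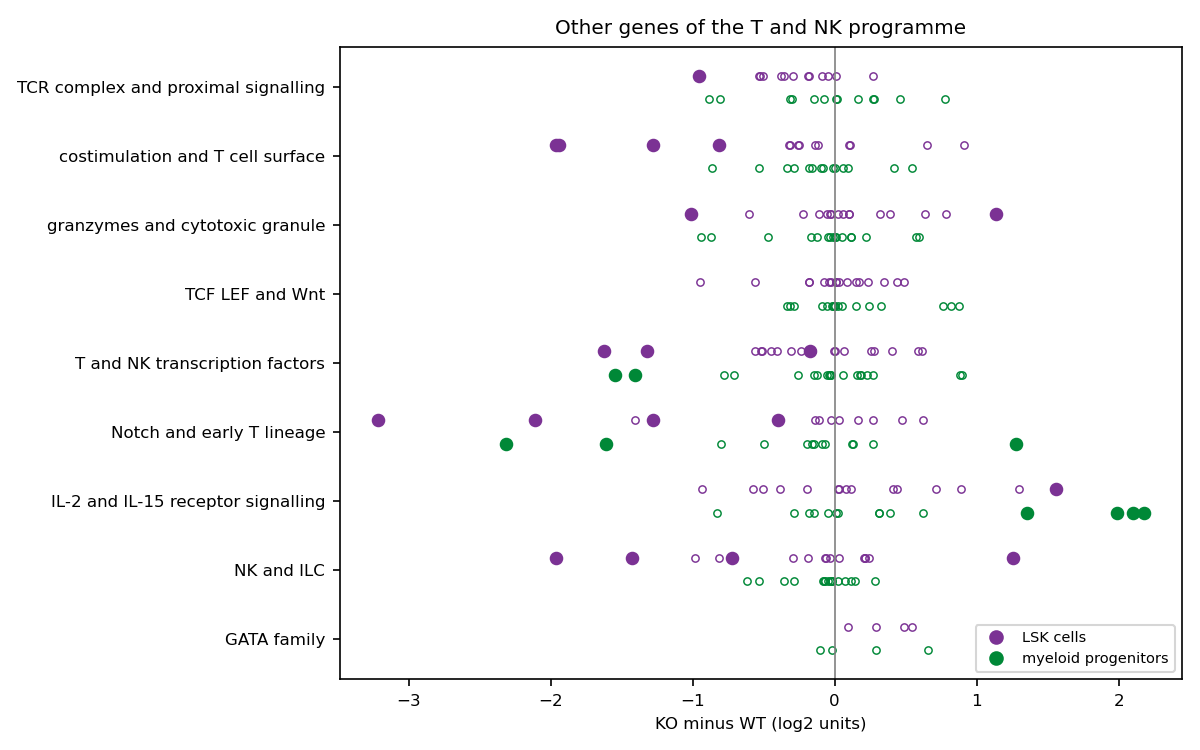
KO minus WT in log2 units (horizontal axis) for the measured genes of each surrounding list (rows) other than the 10 genes themselves, in LSK cells and myeloid progenitors. Each point is 1 gene and filled points passed the adjusted threshold of 0.05; a gene appears once for each list that holds it, and the filled points of the costimulation list all lie below 0 in LSK cells.

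Across the 8 mice, the levels of the 10 genes followed different profiles. Among pairs of the 10, Cd28 and Tcf7 had the Pearson correlation farthest from 0 (r = -0.96 over 8 mouse means), and Tcf7 was also negatively correlated with Lef1 (-0.86) and Gzma (-0.79). The highest positive values were those of Cd28 and Lef1 (0.91), Cd28 and Gzma (0.90) and Cd3d and Cd3g (0.88). As these mice fall into 4 groups and share arrays normalized together, the values are descriptions. For each gene, the 3 most similar among 9557 brighter genes (9556 for genes that are among these themselves) were listed. For Tcf7 they were Celf4 (0.98), Dusp9 (0.98) and Stat6 (0.98), for Lef1 Tek (0.98), Tfcp2 (0.97) and Pip4k2a (0.97), and for Gata3 Tle6 (0.99), Tecpr1 (0.99) and Rtl6 (0.99).

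For Gzmb the most similar were Tmem119 (0.99), Ermp1 (0.98) and Aldh1a7 (0.98), and for Gzma Zfp804a (0.96), Psip1 (0.95) and Ctsc (0.93), the gene of the protease that activates granzymes. For Cd28 they were Map2k6 (0.99), Vpreb3 (0.98) and Chn2 (0.98), and for Cd3d Mzb1 (0.99), Tmem184b (0.99) and Tmub1 (0.97). For Cd3g they were Snx11 (0.97), Cd8b1 (0.95) and Golgb1 (0.94). For Cd3e they were Cfap100 (0.97), Cdk5r2 (0.95) and Gsg1 (0.94), and for Il2rb Fads2 (0.98), Zfp458 (0.94) and Gm5420 (0.94).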

How the data were processed

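Total RNA was amplified, coupled to Cy5 and hybridised, per the labels' protocols. The deposited values are log2 intensities that the authors had already processed, and limma appears, with no version, in the submitters' processing notes. The values themselves look normalized between arrays, since at any rank the 24 sorted arrays lie within 0.0451 of each other. The sources used here do not give the background correction or spot filters. The number of mice limits the precision. Probes were named from the platform annotation, updated through RefSeq symbols of GRCm38.p6 (18213 probes by symbol, 2126 by synonym, 36 kept their own name, 2064 had none), and a gene was read from its brightest probe. Arrays of a mouse were averaged. One model for the 8 mouse means of all 4 groups was fitted in R 4.3.3 with limma 3.58.1 (trend and robust eBayes, two-sided, Benjamini-Hochberg over 22439 probes), a procedure tested on simulated data. The 10 genes, the surrounding lists and the tests were chosen with earlier results of these data known. Named from the surrounding lists were members past the threshold with the genotype, up to 6 a list, and for each of the 10 genes the 3 most correlated genes. The levels of Gzmc, Gzmk, Gata2, Tcf7l1 and Tcf7l2 were chosen after their values were seen, as was Tle1. Whether the mice of a group were littermates is not stated. The p-values set a mean difference against a spread between mice that all 4 groups share and that is moderated over all probes. Other settings of the fit are compared in the closing section.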

Additional observations from a re-analysis of the deposited data

How the results depend on the processing

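With 2 mice per group, calls near the threshold depended on the model. Of 10 genes in LSK cells, 5 passed in the fit of mouse means, 3 with the compared groups alone, 3 with eBayes without trend and robust options and 1 among probes above the 50th percentile. In myeloid progenitors 3 passed, against 5 with the mouse as a random effect and 5 with the compared groups alone. For the average 7 passed, against 4 with plain eBayes and 3 among the brighter probes. The brighter probes leave out the genes with lower means. For the difference between populations 0 passed, against 1 with the random effect and 1 among the brighter probes. For LSK minus myeloid progenitors in WT mice 4 passed, against 2 with plain eBayes, 2 among the brighter probes and 2 without mice 1 and 5. Leaving out 1 mouse in turn gave 3 to 5 genes in LSK cells, 2 to 4 in myeloid progenitors, 5 to 7 for the average, 0 to 1 for the difference, 1 to 2 between populations in KO mice and 2 to 4 in WT mice.

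Array numbers 1 to 3 recur in every group. Correlations of the deviations of equally numbered arrays ran from -0.25 to 0.28 (mean -0.0017, against 0.00082 for other numbers), so the numbers were not taken to pair the arrays. A batch shared by some of them was not tested. With the random effect plus the number as a replicate block, 1 of the 10 genes passed the difference between populations, and 2570, 1549, 3120 and 402 of all genes were called in LSK cells, in myeloid progenitors, for the average and for the difference, with 4514 and 4543 between populations in KO and WT mice.

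Over all genes, LSK cells had 824 calls, against 2671 with the random effect, 479 with the compared groups alone, 549 with plain eBayes, 331 without mice 1 and 5 and 430 to 968 without 1 mouse. Myeloid progenitors had 469, against 1629 with the random effect, 288 with plain eBayes, 243 without mice 1 and 5 and 196 to 546 without 1 mouse. The average had 1410, against 3196, 735 without mice 1 and 5, and 793 to 1476. The difference had 11, against 454, 0 with plain eBayes, 31 among the brighter probes, 49 without mice 1 and 5, and 10 to 117. Between populations KO mice had 2262, against 4628 and 936 to 2687, and WT mice 2403, against 4675, 617 without mice 1 and 5, and 1077 to 2749. The random effect counts arrays of a mouse, which are technical, and leaving out mice lowers the number of samples. Otherwise the cause was not tested.

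Only differences that had not passed changed sign. Without mice 1 and 5, Il2rb was at -0.13 in LSK cells, -0.062 in myeloid progenitors and -0.097 on average. Without 1 mouse in turn, KO minus WT in LSK cells spanned -0.13 to 0.38 for Il2rb, -0.15 to 0.071 for Cd3e and -0.35 to 0.19 for Gzmb, and in myeloid progenitors -0.062 to 0.37 for Il2rb. The difference between populations spanned -0.23 to 0.88 for Gata3, -0.29 to 0.22 for Il2rb and -0.21 to 0.0024 for Cd3g. LSK minus myeloid progenitors in KO mice spanned -0.047 to 0.12 for Cd3e, -0.037 to 0.051 for Cd3g and -0.19 to 0.0022 for Cd28, and in WT mice -0.034 to 0.20 for Cd28 and -0.065 to 0.58 for Gzma. Over the changes of the 10 genes in all comparisons, 915 kept their direction and side of the threshold, 53 lost the threshold, 15 gained it and 21 changed sign.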
